A study of Arabidopsis thaliana with 4 samples.

Results

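The genes described here are 10 Arabidopsis thaliana genes of the cell division machinery: MCM2 (AT1G44900), MCM3 (AT5G46280), MCM4 (AT2G16440), MCM5 (AT2G07690), MCM6 (AT5G44635) and MCM7 (AT4G02060, also called PROLIFERA), the B-type cyclins CYCB1;1 (AT4G37490) and CYCB1;2 (AT5G06150), and the cyclin-dependent kinases CDKB2;1 (AT1G76540) and CDKB2;2 (AT1G20930). They were chosen by locus identifier, as the gene spots that carry one of these loci, out of 29030 loci on the array. All 10 were on the array, read by 13 probes, and all 10 were among the 22690 genes tested. The gene table lists each locus under the name used here. Every one of the 13 probes was well above background in both channels on all 4 arrays, so no value below is a bound.

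The exposed plants were ecotype Col-0, the standard laboratory line, and shared the air space of an upright plate with Pseudomonas syringae DC3000, a leaf pathogen of tomato and Arabidopsis that grew in the lower part of the plate. The control plants were also Col-0, on plates with no bacteria. Both had grown for 8 days per the series design, which states an exposure of 12 hours, whereas the sample labels state 12 days. No source used here settles this. Exposed RNA carried the dye Cy5 and control RNA the dye Cy3 on each of the 4 arrays. With Cy5 always on the exposed side, dye bias and exposure cannot be told apart. The labels name no organ, and do not say whether plants were pooled or whether the 4 RNA pairs came from separate plants. In RNA from whole tissue, fewer dividing cells and less RNA per dividing cell cannot be told apart.

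The products of MCM2 to MCM7 form the ring-shaped helicase that is loaded on DNA at replication origins before S phase and that unwinds DNA ahead of the replication fork. Their transcripts are made mainly in late G1 and S phase, under E2F transcription factors. B1-type cyclins and the plant-specific B2-type CDKs act together around the entry into mitosis, and their transcripts peak in G2 and M phase under MYB3R factors. In a seedling most such transcripts come from the dividing cells of root and shoot tips and young leaves, and CYCB1;1 is also known to be induced by DNA damage.

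The 4 arrays were not alike. Gene spots had medians of 336 to 373 scanner units in the exposed channel and 292 to 362.5 in the control channel on arrays 1 to 3, against 1286 and 575.5 on array 4. Across genes, which are not independent replicates, log2 ratios correlated with r = 0.648 to 0.779 among arrays 1 to 3 and with r = 0.22 to 0.288 between array 4 and the others. On 50 probes spotted 5 times, the spread between arrays 1 to 3 (median SD 0.0469) was about that given by the noise between spots (0.0512). What the p-values below measure is the spread between these arrays alone, possibly technical spread, and with arrays 1 to 3 counted as 1 sample limma called 0 genes of any kind (1317 at an unadjusted p below 0.05). It also called 0 genes without array 1, array 2 or array 3 (3580, 3873 and 3494 at an unadjusted p below 0.05) and 7054 without array 4, so every call below rests on arrays 1 to 3 being separate samples.

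MCM2 was called lower in the exposed channel, and it was the only member that passed the test. Its brighter probe read 1921, 1578, 1757 and 1925 units of normalized signal in the exposed channel of arrays 1 to 4, against 2379, 2035, 2381 and 3000 units in the control channel. The normalized exposed signal was below the control signal on every array, as for 20.7% of tested genes. Signals were not scaled between arrays. Here and below, signals and their ranges are a description only, and the ratio within each array is what was fitted. The log2 ratios of this probe, exposed over control, were -0.31, -0.37, -0.44 and -0.64. Before normalization the exposed signal was the lower one on arrays 1 to 3. On array 4 it was the higher one, at 2534 against 2365 units, so the sign there rests on the normalization. The raw exposed signal on array 4 was also the higher one for every other member probe. Each member ratio below 0 on that array therefore rests on the normalization. The fitted ratio was -0.44 ± 0.075 (SE, n = 4; 95% interval -0.62 to -0.26), a 1.36-fold lower level (limma, adjusted p = 0.0402). The count of 1 called member in 10 stands beside 3.4% of all tested genes called in either direction, 1.82% lower and 1.58% higher. Within the MCM group MCM2 had the lowest log2 ratio on each of the 4 arrays, which describes a gene singled out after its values were seen.

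The call of MCM2 is close to the threshold. A second, dimmer MCM2 probe read 107, 103, 106 and 155 units in the exposed channel, against 131, 108, 125 and 192 units in the control channel. Its log2 ratios were -0.29, -0.073, -0.24 and -0.30, lower in the exposed channel on all 4 arrays but with a smaller mean of -0.22 ± 0.068 (SE, n = 4). This probe was near background, with raw exposed signals of 105.5, 95.5 and 104 over backgrounds of 56, 51 and 55 on arrays 1 to 3. The offset of 50 in the background correction draws ratios of such dim signals towards 0. Its smaller mean is therefore not a measure of how well the probes agree. The mean of both probes gave -0.33 with an adjusted p of 0.0522. Without array 4 MCM2 was at -0.37 (adjusted p = 0.000194, limma), and without array 1, array 2 or array 3 it was at -0.48, -0.46 and -0.44 with adjusted p of 0.21, 0.199 and 0.246. Within the slide that held arrays 1 and 2 its ratio was -0.34, and within the slide that held arrays 3 and 4 it was -0.54.

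**Figure D1:**
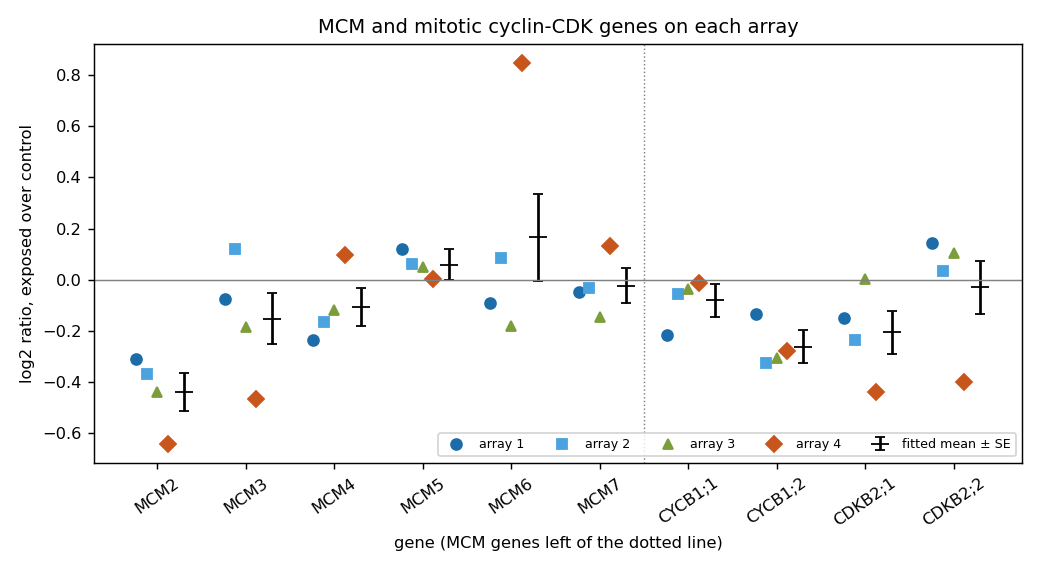
Log2 ratio of exposed over control (y axis) of the 10 genes (x axis) on each of the 4 arrays, with the fitted mean ± SE in black (n = 4 arrays). MCM2 lies below 0 on all 4 arrays, between -0.31 and -0.64, and array 4 lies far from the others for MCM6 at 0.85.

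The other 5 MCM genes, whose products sit in the same hexamer, did not pass the test, and their fitted log2 ratios lay on both sides of 0. MCM3 was at -0.074, 0.12, -0.18 and -0.47 on arrays 1 to 4, with signals of 798, 750, 605 and 943 units in the exposed channel against 840, 691, 687 and 1304 in the control channel. The channels overlapped, array 2 was on the other side of 0 from the rest, and the fitted ratio was -0.15 ± 0.101 (SE, n = 4, adjusted p = 0.385 in limma). MCM5 was at 0.12, 0.063, 0.049 and 0.0049, above 0 on all 4 arrays, as were 17.2% of tested genes. Its fitted ratio of 0.059 had a 95% interval of -0.084 to 0.2, an interval that includes 0.

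MCM4 and MCM7, like MCM2, were read by a pair of probes each. The brighter MCM4 probe gave -0.24, -0.17 and -0.12 on arrays 1 to 3 and 0.097 on array 4, with a fitted ratio of -0.11 ± 0.075 (SE, n = 4). The dimmer MCM4 probe gave -0.084, 0.0013, 0.1 and -0.14. Its sign on arrays 2, 3 and 4 was opposite to that of the brighter probe. MCM4 was called lower without array 4 (-0.17, adjusted p = 0.0322), a fit in which 31.1% of all tested genes were called in either direction and 14.3% lower. The brighter MCM7 probe gave -0.048, -0.032, -0.15 and 0.13, and the dimmer one gave -0.0033, -0.19, 0.03 and -0.14. Neither MCM7 probe kept 1 sign over the 4 arrays, and the fitted ratio was -0.023 ± 0.0695 (SE, n = 4), with a 95% interval of -0.19 to 0.14.

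**Figure D2:**
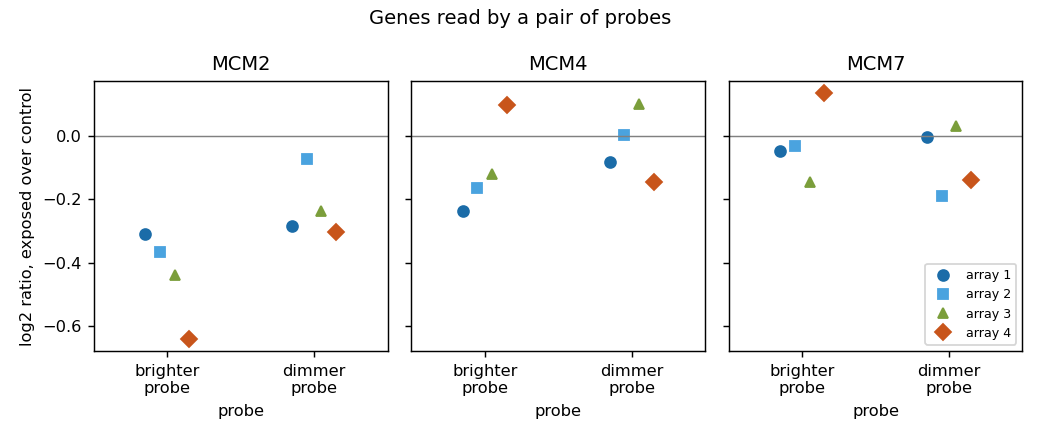
Log2 ratio of exposed over control (y axis) from the brighter and the dimmer probe (x axis) of MCM2, MCM4 and MCM7 on each of the 4 arrays. Both MCM2 probes lie below 0 on every array, while the probes of MCM4 and MCM7 cross 0.

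MCM6 was the member whose arrays differed most. It read 687, 614, 626 and 3177 units in the exposed channel of arrays 1 to 4, against 732, 578, 710 and 1766 units in the control channel. The signal on array 4 stood above that of the other arrays in both channels and more so in the exposed one. The log2 ratios were -0.091, 0.087, -0.18 and 0.85, and the fitted ratio of 0.17 ± 0.168 (SE, n = 4, adjusted p = 0.567 in limma) turned to -0.062 without array 4. Over the 6 MCM genes the median fitted log2 ratio was -0.064, beside -0.0046 over all tested genes, and the array medians of the group were -0.083, 0.016, -0.16 and 0.051.

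**Figure D3:**
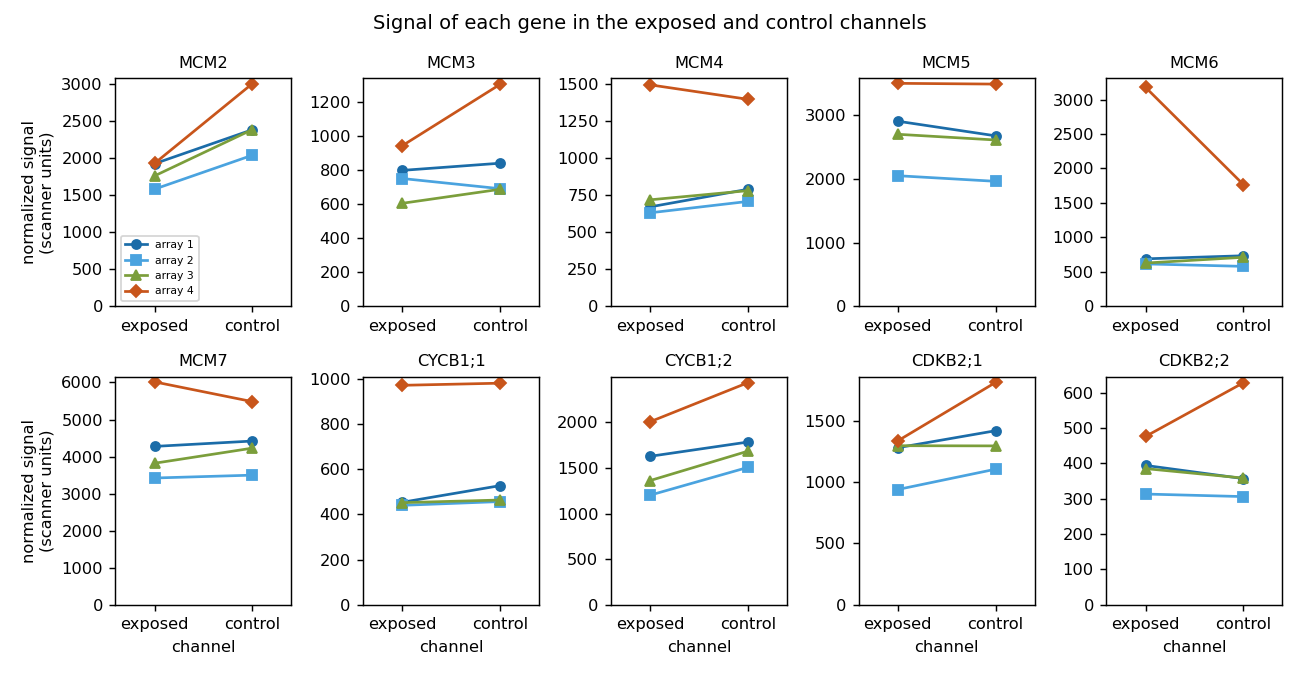
Loess-normalized signal in scanner units (y axis, from 0) of the brightest probe of each gene in the exposed and the control channel (x axis), with a line for each of the 4 arrays. MCM2 reads lower in the exposed channel on every array, and array 4 reads MCM6 at 3177 units in the exposed channel and 1766 in the control channel.

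None of the 4 mitotic genes passed the test in limma. An unadjusted p below 0.05 was found for 2 of them, beside 24.8% of all tested genes. All 4 had fitted log2 ratios below 0, as did 51% of all tested genes. CYCB1;2, a B1 cyclin of dividing cells, came closest. It read 1628, 1202, 1362 and 2007 units in the exposed channel, against 1785, 1507, 1684 and 2435 units in the control channel. Within each array the normalized exposed signal was the lower one, as for 20.7% of tested genes, while the ranges of the channels overlapped. Before normalization the exposed signal was the higher one on array 4, at 2655.5 against 1913.5 units. The log2 ratios were -0.13, -0.33, -0.31 and -0.28, with a fitted ratio of -0.26 ± 0.0646 (SE, n = 4; 95% interval -0.42 to -0.11) and an adjusted p of 0.0783 in limma. CYCB1;2 was called lower without array 4 (-0.25, adjusted p = 0.00462), the fit in which 31.1% of genes were called.

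CYCB1;1, the cyclin most used to mark cells in G2 and M phase, had log2 ratios nearer to 0. It read 454, 441, 452 and 972 units in the exposed channel, against 528, 457, 464 and 982 units in the control channel. Its log2 ratios of -0.22, -0.054, -0.037 and -0.014 were below 0 on all 4 arrays, as were those of 20.7% of tested genes, and array 1 gave the lowest. The fitted ratio was -0.08 ± 0.0653 (SE, n = 4, adjusted p = 0.474 in limma). CYCB1;2 minus CYCB1;1 differed by 0.084, -0.27, -0.27 and -0.27 on the log2 scale on arrays 1 to 4, with a mean difference of -0.18 ± 0.177 (SD, n = 4; exact two-sided sign-flip permutation test, p = 0.25). The smallest p that 4 arrays allow in this test is 0.125.

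The B2-type kinases CDKB2;1 and CDKB2;2 also had fitted ratios below 0. CDKB2;1 read 1281, 940, 1297 and 1337 units in the exposed channel, against 1420, 1106, 1296 and 1813 units in the control channel, or log2 ratios of -0.15, -0.23, 0.0016 and -0.44. Array 3 was near 0 and the other arrays were below it, and the fitted ratio was -0.21 ± 0.0847 (SE, n = 4, adjusted p = 0.198 in limma). CDKB2;2 read 394, 313, 385 and 476 units in the exposed channel, against 357, 306, 358 and 628 units in the control channel. Its log2 ratios of 0.14, 0.034 and 0.1 on arrays 1 to 3 were above 0 and that of -0.4 on array 4 was below, and the fitted ratio of -0.03 turned to 0.094 without array 4. CDKB2;1 was below CDKB2;2 by 0.29, 0.27, 0.1 and 0.04 log2 units on arrays 1 to 4, with a mean difference of -0.18 ± 0.123 (SD, n = 4; exact two-sided sign-flip permutation test, p = 0.125, the smallest possible, or 0.25 adjusted over the 2 pairs compared).

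Over all 10 genes 1 was called lower, 0 were called higher and 9 were not called (limma, threshold 0.05), with 3 at an unadjusted p below 0.05, against 24.8% of all tested genes. By fitted log2 ratio the order was MCM2, CYCB1;2, CDKB2;1, MCM3, MCM4, CYCB1;1, CDKB2;2, MCM7, MCM5 and MCM6. Differences between neighbours in this order, taken within each array, were smaller than their SD over the 4 arrays for 8 of the 9 pairs. The exception was MCM2 below CYCB1;2, by 0.18, 0.041, 0.13 and 0.36 log2 units on arrays 1 to 4 (mean difference -0.18 ± 0.134, SD, n = 4), which is given as a description because the order was read from these values. The members spanned 0.45 to 0.54 log2 units on each of arrays 1 to 3 and 1.49 on array 4, and 8, 6, 7 and 6 of the 10 were below 0 on arrays 1 to 4. Of the 22690 tested genes 10947, 10919, 11009 and 13208 were below 0 on the same arrays. The median over the 10 was -0.093, which describes these genes and is not a test of them.

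The 3 other genes whose log2 ratios lay nearest to the mean profile of the MCM genes were the gamete gene GEX2, AT5G49350 and the nucleotide sugar transporter gene UTR2, at Euclidean distances of 0.012, 0.027 and 0.034 log2 units over the 4 arrays. Of 22613 genes 111 lay within 0.1 of that profile, which itself stays near 0 at -0.11, -0.049, -0.17 and -0.004.

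The rest of the cell cycle machinery was described from gene lists written out by locus. Counts at an unadjusted p below 0.05, here and in the lists below, stand beside 24.8% of all tested genes. No gene that acts beside the MCM helicase passed the test in limma. Of 21 genes of origin licensing and firing (the origin recognition complex, CDC6, CDT1, CDC45 and the GINS complex among them) none was called (1 at an unadjusted p below 0.05), 9 were below 0 and the median was 0.034. SLD5, a GINS subunit, was at 0.25 (adjusted p = 0.104). CDC45, which joins the MCM ring to make the active helicase, was at -0.21 with values below 0 on all 4 arrays, and ORC2, a subunit of the origin recognition complex, was at 0.13. Of 14 DNA synthesis genes none was called (1 at an unadjusted p below 0.05), and the median was -0.037. The flap endonuclease gene FEN1 was at 0.34, the topoisomerase gene TOPII at -0.16 and PCNA2, which encodes the sliding clamp of DNA polymerase, at -0.12.

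No transcriptional regulator of the cycle passed the test among 13 in the E2F, RBR and MYB3R list (1 at an unadjusted p below 0.05, median 0.012). DEL1, an atypical E2F that represses endoreduplication genes, was at -0.29 and below 0 on all 4 arrays (adjusted p = 0.0833). RBR1, the retinoblastoma homologue, was at 0.2 and E2FC, a repressing E2F, at -0.25. Among 17 of 18 other A- and B-type cyclins that were tested (CYCA3;3 was not), none was called (3 at an unadjusted p below 0.05), with CYCB3;1 at -0.3, CYCA2;4 at -0.2 and CYCA3;4 at 0.24 (list median -0.016). Of 10 D-type cyclins, which drive the entry into the cycle, none was called (2 at an unadjusted p below 0.05), with CYCD1;1 at -0.43, CYCD3;2 at -0.18 and CYCD2;1 at 0.19 (median -0.05). CYCD1;1 was at -0.23, -0.19 and -0.31 on arrays 1 to 3 and at -0.99 on array 4.

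Of 10 other CDKs and CDK partners none was called (1 at an unadjusted p below 0.05, median -0.015). CDKA;1, the main CDK of plants, was at -0.17 and below 0 on all 4 arrays, CDKB1;1 was at -0.13 and CDKD;2, a CDK-activating kinase, at 0.11. Of 16 CDK inhibitors none was called (3 at an unadjusted p below 0.05, median -0.025), with the SIAMESE-related genes SMR2 at 0.27 and SMR5 at 0.27 and the CDK-inhibiting kinase gene WEE1 at -0.32. Of 8 genes that control the anaphase-promoting complex, which marks mitotic cyclins for destruction, none was called (0 also at an unadjusted p below 0.05), with OSD1 at 0.19, HBT at -0.18 and CDC20.2 at -0.14 (median -0.061). CDC20.2 has a close copy, and its probe may read both.

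The list of mitosis and cytokinesis held 2 genes called lower and none called higher, while 16 of its 18 genes did not pass the test. Over all tested genes 1.82% were called lower. POK1, a kinesin that helps to place the division plane, was at -0.43, -0.39, -0.64 and -0.42 on arrays 1 to 4, with a fitted ratio of -0.47 ± 0.0698 (SE, n = 4, adjusted p = 0.031 in limma). HIK, the HINKEL kinesin needed to form the cell plate, was at -0.22, -0.35, -0.33 and -0.42, with a fitted ratio of -0.33 (adjusted p = 0.0487 in limma). Both kinesin calls were lost without array 1, array 2 or array 3 (adjusted p from 0.195 to 0.255), and that of HIK also with the scanner log ratio (0.0729) and with no filter on dim probes (0.0709), where POK1 kept its call (0.034 and 0.0454). RUK, a kinase-like protein of cytokinesis also called RUNKEL, was at -0.49 with an adjusted p of 0.0535. In the whole list 15 of 18 genes had a fitted ratio below 0, against 51% of all tested genes, and 9 were below 0 on all 4 arrays, against 20.7%. The list median was -0.17, with array medians of -0.11, -0.042, -0.11 and -0.41, beside 0.0069, 0.008, 0.0081 and -0.068 over all tested genes. The list was chosen with earlier results of these data known, so its counts and medians are a description and not a test. Without array 4 the median was -0.11, with 6 called lower and 1 called higher of 18, where 14.3% of all tested genes were called lower.

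**Figure D4:**
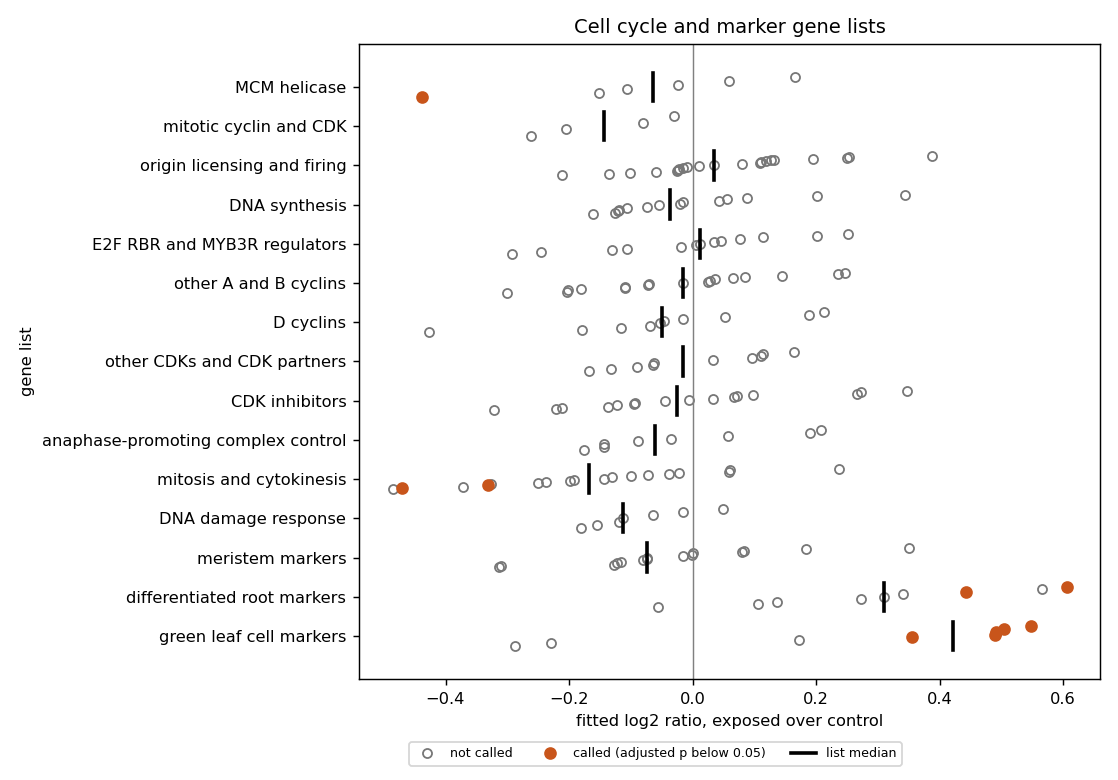
Fitted log2 ratio of exposed over control (x axis) of every tested gene in each list (y axis), with called genes filled and list medians as black bars. The median of the mitosis and cytokinesis list lies at -0.17, that of origin licensing at 0.034, and those of the root and green leaf markers at 0.31 and 0.42.

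Of 7 genes of the DNA damage response, listed because CYCB1;1 also belongs to it, none was called in limma (1 at an unadjusted p below 0.05, median -0.11), with GMI1 at -0.18, SOG1, the transcription factor of that response, at -0.15 and PARP1 at -0.11. The damage-induced inhibitor SMR5 was at 0.3, 0.45 and 0.36 on arrays 1 to 3 and at -0.014 on array 4.

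Markers of tissues that hold dividing and non-dividing cells were read on the same arrays. Of 17 meristem markers 15 were tested and none was called in limma (1 at an unadjusted p below 0.05), while WUS and CLV3, which define the shoot stem cell niche, were not well above background often enough to be tested. GRF1 was at -0.31, STM at -0.31 and ANT at -0.13, and the list median was -0.073. The summed signal of the tested meristem markers was 11641 to 14173 units in the exposed channels of arrays 1 to 3, against 11856 to 14288 in the control channels, and 24228 against 21064 on array 4.

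Of 9 markers of differentiated root cells, 2 were called higher and none lower, beside 1.58% of all tested genes called higher. Those called higher were PYK10, a root beta-glucosidase (0.61, adjusted p = 0.0164 in limma), and PRP3, a root hair wall protein gene (0.44, adjusted p = 0.0295). The endodermis gene CASP1 was at 0.27. When all probes of a gene were averaged, PYK10 was at 0.26 and no longer called (adjusted p = 0.0621). With median centring PRP3 lost its call (adjusted p = 0.115), while PYK10 was at 0.99 (adjusted p = 0.00215). The root list had a median of 0.31 and a summed signal, most of it from PYK10, of 206551 to 262994 units in the exposed channels of arrays 1 to 3, against 146969 to 167788 in the control channels, and of 255691 against 165960 on array 4. Without PYK10 the sum of the other 8 root markers was 14851 to 16926 units in the exposed channels of arrays 1 to 3, against 12057 to 13836 in the control channels, and 22681 against 18087 on array 4.

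Of 8 markers of green leaf cells 5 were called higher, none lower and 3 did not pass the test, beside 1.58% of all tested genes called higher. Those called higher were CAB1 (0.5), RBCS1A (0.49), RBCS2B (0.55), CA1 (0.35) and PSBO1 (0.49, on 3 arrays, since its spot on array 1 was an outlier and left out of the fit). Of the others, RCA, which encodes Rubisco activase, was at -0.29 (adjusted p = 0.0791) and GLK1, a transcription factor of chloroplast development, at -0.23 (adjusted p = 0.107), both below 0 on all 4 arrays and both named after their values were seen. CAB3 was at 0.17. None of the 8 was called without array 1, array 2 or array 3, where no gene of the whole array was. The summed signal of the 8 was 1223590 to 1603870 units in the exposed channels of arrays 1 to 3, against 1045150 to 1192040 in the control channels, and 1582380 against 1179730 on array 4. The copies within the CAB and RBCS families are nearly identical, so that a probe of 1 copy can bind transcripts of another. When all probes of a gene were averaged, the green leaf list had 1 gene called higher and 1 called lower, with a median of 0.076 in place of 0.42. In that setting RBCS2B kept its call (0.34, adjusted p = 0.0492), CAB1 and PSBO1 were at 0.12 and 0.14, and CA1 turned to -0.088. By the scanner log ratio the list also had 1 called higher and 1 lower, with a median of 0.15 and CA1 at 0.039 (adjusted p = 0.696), and with no filter on dim probes 2 were called higher. Median centring moved the list the other way, to a median of 0.77 with 5 called higher. The part of these tissue markers in the ratios of MCM2, POK1 and HIK was not tested.

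**Figure D5:**
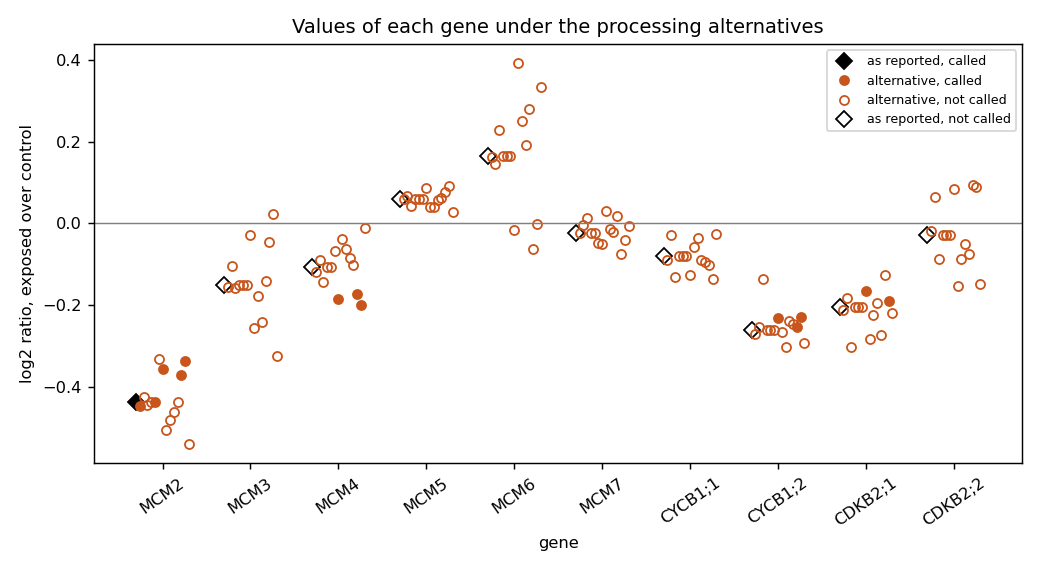
Log2 ratio of exposed over control (y axis) of each of the 10 genes (x axis) as reported and under 14 other ways of processing or choosing arrays, filled where the adjusted p was below 0.05. MCM2 stays between -0.54 and -0.33, CYCB1;2 between -0.3 and -0.14, and MCM6 and CDKB2;2 appear on both sides of 0.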

How the data were processed

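Each deposited scanner file gives the linear intensity of 45220 spots in both channels, with background and quality marks, made with Agilent Feature Extraction (version 11.5.1.1 per the file headers, 8.5.1.1 per the submitters' processing notes). The scanner software's deposited log10 ratio served as an alternative. The deposited log2 values of the series matrix, which the labels call exposed over control, equalled log2 of the processed Cy5 over Cy3 signal (tolerance 0.001) on array 1 alone and were not used.

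In R 4.3.3 with limma 3.58.1, median signals were corrected with normexp (offset 50) and loess within arrays, with control and outlier spots (13 to 142 gene spots per array) left out. Normalized signals were not scaled between arrays. Tested probes were well above background on at least 3 arrays in 1 channel, and the brightest stood for its gene. Log2 ratios were fitted against 0 with lmFit and eBayes, with Benjamini-Hochberg adjustment over 22690 genes, two-sided, at 0.05. A test of the fit on simulated data took arrays as independent and equally noisy. It therefore does not bear on technical repeats or on the unlike array 4. Members and lists were chosen with earlier results of these data known. Named genes were the members, each list's called genes, the lowest p up to 3 per list, and the 3 genes nearest to the MCM profile. The number of arrays limits the precision. Names come from an NCBI table of TAIR10.1, and the planned promoter and protein comparisons were not run because no sequence table was used here. Alternatives changed the background, normalization, filter, probe rule, array weights, and arrays or slides used.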

Additional observations from a re-analysis of the deposited data

How the results depend on the processing

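The fitted ratio was itself a paired comparison, because each array pairs exposed with control RNA. The arrays form 1 group, so no further pairing could be added. MCM2 stayed below 0 under all 14 alternatives (-0.54 to -0.33, adjusted p from 1.41e-06 to 0.631 in limma) and was called under 5 of them. The lowest p came from slide 1 (arrays 1 and 2), where every member had the same SE of 0.0629. Of the 5, the fits within slide 1 and without array 4 left array 4 out. The fit with array weights gave array 4 a weight of 0.155, against 3.03 for array 1. Against 1 member called, the count was 0 with median centring, the scanner log ratio, no filter on dim probes, the mean of probes, arrays 1 to 3 as 1 sample, and within slide 2. It was 4 with array weights and within slide 1, all lower. Over all tested genes 3844 of 22690 were called lower with array weights and 3630 of 22676 within slide 1. The count of members was 0 to 3 when an array was left out, with 3 without array 4, where 14.3% of all tested genes were called lower. The median of the MCM genes ranged from -0.071 to -0.0045 under the alternatives, and that of the mitotic genes from -0.21 to -0.11. Both moved by less than the SD of their array medians. That SD is wide beside the medians, so this does not show that they are stable. Over all genes 772 were called (46.4% higher), against 216 with median centring (76.9% higher), 292 with no filter, 1145 with plain subtraction (57.4% higher), 8275 with array weights, 7943 within slide 1, 7054 without array 4, and 0 within slide 2, with arrays 1 to 3 as 1 sample, or without array 1, 2 or 3 (1999, 1317, 3580, 3873 and 3494 at an unadjusted p below 0.05). CDKB2;2, MCM6, MCM7 and MCM3, never called, changed sign under some alternatives. POK1 and HIK lost their calls without array 1, 2 or 3 (adjusted p from 0.195 to 0.255) and with median centring (0.168 and 0.269), within slide 2 or with arrays 1 to 3 as 1 sample, and HIK alone also with the scanner log ratio and with no filter. The cause was not tested.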

Other observations

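In the deposited series matrix the 13 member probes had a median of -0.11 on array 1, but of -3.25, -3.27 and -3.05 on arrays 2 to 4, and the brighter MCM2 probe stood at -0.30, -2.92, -2.95 and -2.61. On array 1 the matrix equalled log2 of processed exposed over processed control signal at all 45220 spots, within 0.001. On arrays 2 to 4 it equalled log2 of the control signal's error over the processed exposed signal at 45219, 45220 and 45220 spots. A reader taking the matrix as log2 ratios would therefore find large falls of all 10 genes on arrays 2 to 4, where their brightest probes have normalized log2 ratios between -0.64 and 0.85.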
